A study of Mus musculus with 12 samples.

Results

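Myoc, the gene of the secreted glycoprotein myocilin, is 1 of the 24985 genes counted in the dorsal hippocampus of 12 mice. It was chosen by its pattern of normalized counts, because all 3 mice that had both the AD tau injection and the acetate diet had higher values than the other 9. The values of those 3 mice against any other group are therefore given as a description, and only comparisons among the other 3 groups were tested. All 12 mice were labelled as male C57Bl6/J wild-type animals, were operated on the right side at 6 months of age, and were kept for a further 6 months before the injected dorsal hippocampus was taken 24 hours after a remote recall test of fear memory. The PBS control group received PBS and a control diet matched in calories. The PBS acetate group received PBS and LabDiet 5001 with 5% Na-acetate. The tau control group received 1 µg AD tau, an insoluble tau fraction purified from the frontal cortex of patients with Alzheimer's disease, and the control diet. The tau acetate group received 1 µg AD tau and the acetate diet. Each group held 3 mice, 1 library each, and AD tau was seeded into an otherwise normal brain, so the model rests on 1 injection site in mice that carry no tau transgene.

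Myocilin has a coiled-coil stretch near its amino end and an olfactomedin domain at its carboxyl end. It is best known from the trabecular meshwork of the eye, where glucocorticoids induce it and where misfolded human MYOC causes a form of glaucoma. In the central nervous system Myoc RNA marks astrocytes of the glia limitans and of white matter tracts, and the protein has been linked to the differentiation of oligodendrocytes through the Nogo receptor and its co-receptor Lingo1.

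On GRCm38, Myoc lies on the plus strand of chromosome 1, at chr1:162639155-162649693, with 3 exons of 671, 126 and 1277 bases (GENCODE release 21). The 490 codons span all 3 exons, and the remaining 109 and 495 bases, stop codon included, are untranslated sequence at either end. An antisense gene, Myocos, shares 93 bases with the coding exon 2, or 4.48% of the exon bases of Myoc. The shared stretch is shown because reads from it could be given to either gene if strand were lost, and it reads as follows on the strand of Myoc, at chr1:162647444-162647536.
Myoc exon 2, part shared with Myocos: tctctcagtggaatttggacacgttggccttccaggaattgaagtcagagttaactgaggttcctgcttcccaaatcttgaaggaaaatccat
The authors counted reads by strand. Myocos received 3 reads over the 12 mice, against 3591 for Myoc, and no mouse had more than 2.

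The 250 bases before the RefSeq start of Myoc (GRCm38.p6, chr1:162638900-162639149, plus strand) are shown because a set of glucocorticoid-responsive genes is compared with Myoc in the results. Capitals mark an E-box (CANNTG) and a TATA box (TATAAA).
Myoc upstream: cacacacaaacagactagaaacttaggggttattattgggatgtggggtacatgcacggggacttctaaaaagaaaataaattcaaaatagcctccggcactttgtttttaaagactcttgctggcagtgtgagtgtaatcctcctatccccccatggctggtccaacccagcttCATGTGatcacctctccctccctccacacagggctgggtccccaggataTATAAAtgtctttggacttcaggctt
TATAAA, searched on the strand of the gene, occurred in 7.6% of the 32817 upstream windows of 250 bases in RefSeq, and CANNTG in 66.2%. The half-site of the glucocorticoid receptor, AGAACA, and the AP-1 site TGANTCA were searched on both strands and were not found in this window. Over all windows they occurred in 16.1% and 6.75%.

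Libraries held between 12983233 and 20218340 reads on genes, and TMM factors lay between 0.99 and 1.01. Markers of all 3 principal fields of the hippocampus were present, with means over 12 mice of 206.9 CPM (reads scaled to the size of the library) for Mpped1 (CA1), 258.7 CPM for Spock1 (CA3) and 181.6 CPM for Prox1 (dentate granule cells). Xist, transcribed from the inactivated X, had between 13583 and 25991 reads in every library, and the 49 chromosome Y genes of the table had 0 reads in all 12, which goes against the label male. Since this holds for every library, it sets no group apart. Replicate libraries differed from each other beyond sampling noise (chi-square of 3.45 to 7.53 per gene), and none appeared to have been deposited again. Values are normalized counts, in CPM after TMM scaling.

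Myoc was detected in every mouse, with 185 to 530 reads. Per kilobase of exon its mean level was 8.99 CPM, rank 5215 of 14639 tested genes with a known length and above 64.4% of them. In the PBS control group, Myoc stood at 15.31, 19.61 and 17.61 CPM. In the PBS acetate group, it stood at 16.47, 17.69 and 18.08 CPM. In the tau control group, it stood at 14.06, 15.59 and 14.12 CPM. Among these 9 mice, the PBS acetate range lay inside the PBS control range, and tau control mice held the 2 lowest places. In the tau acetate group, Myoc stood at 26.27, 25.35 and 23.7 CPM, above all 9 others.

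**Figure D1:**
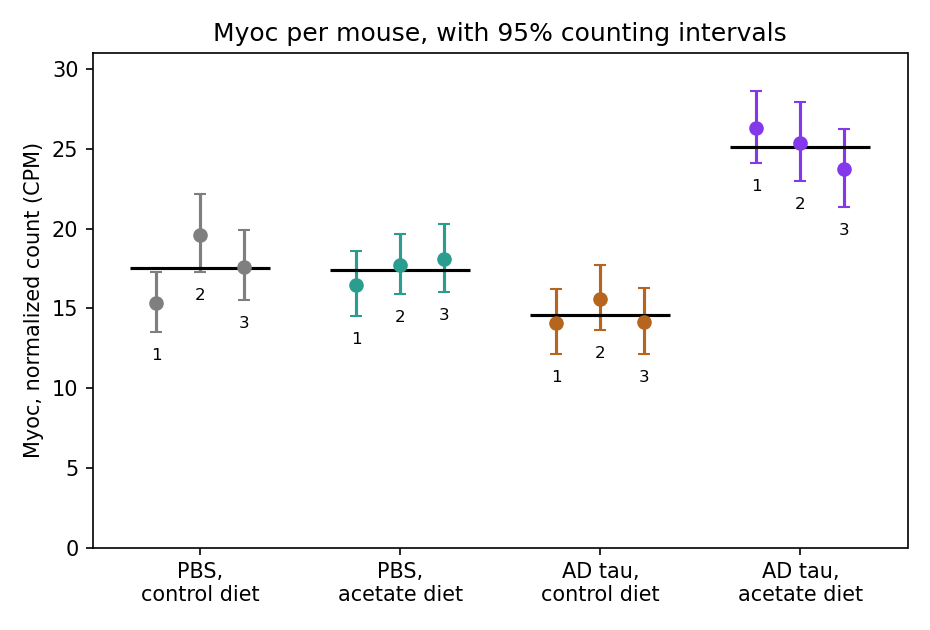
Normalized count of Myoc (CPM, y axis) in each of 12 mice by group (x axis), with exact Poisson 95% intervals as bars, mouse numbers under the points and group means as black lines. The 3 mice with AD tau and the acetate diet sit between 23.7 and 26.27 CPM, and the other 9 between 14.06 and 19.61 CPM.

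Group means were 25.1 ± 1.3 CPM (SD, n = 3) in the tau acetate group, 17.51 ± 2.15 in the PBS control group, 17.41 ± 0.84 in the PBS acetate group and 14.59 ± 0.865 in the tau control group. The lowest mouse inside the rule, tau acetate mouse 3, had 23.7 CPM, and the highest outside it, PBS control mouse 2, had 19.61 CPM, a gap of 0.27 on the log2 scale. Of the 14742 genes tested, 109 had all tau acetate mice above the other 9, or 0.739%, and 140 had them all below, or 0.95%. Among the 88 of those 109 with a mean of at least 5 CPM, the gap of Myoc was the widest. These values come from the pattern for which Myoc was picked and support nothing further.

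The spread of Myoc within 3 of the groups was about as small as counting allows, although the rule that chose Myoc favours genes with little spread. The coefficient of variation was 4.82% in the PBS acetate group, 5.93% in the tau control group and 5.18% in the tau acetate group, where counting noise alone gives 5.84%, 6.98% and 4.77%. In the PBS control group it was 12.3%, against a counting value of 6.21%. There mouse 1 had 263 reads among 17355376 and mouse 2 had 254 among 12983233, and their counting intervals, 13.52 to 17.28 and 17.28 to 22.18 CPM, touched only at their ends.

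Whether acetate alone moved Myoc was asked in PBS-injected mice, and no difference was detectable. The log2 fold change was -0.0011 ± 0.098 (SE), with a 95% interval of -0.21 to 0.20, or 0.867-fold to 1.15-fold, and an adjusted p of 0.997 (edgeR's quasi-likelihood F test, Benjamini-Hochberg over all 14742 genes). In the same mice 1303 genes, or 8.84%, passed an adjusted p below 0.1. That count leaned on single mice, falling to 15 genes without PBS acetate mouse 2, to 248 without PBS control mouse 3, to 315 without PBS acetate mouse 1 and to 727 without PBS control mouse 1. Of the calls named for this comparison in the following, only that of Per1 was kept without PBS acetate mouse 2. In bulk tissue, fewer cells of a type and less RNA per cell cannot be told apart, and this holds for each comparison here.

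Whether AD tau alone moved Myoc was asked on the control diet. Myoc stood at 14.06, 15.59 and 14.12 CPM with AD tau, and 1 of the 3 PBS control mice, at 15.31 CPM, fell within that range. The log2 fold change was -0.26 ± 0.10 (SE), a ratio of 0.838, with a 95% interval of -0.47 to -0.044. The adjusted p was 0.421 by edgeR (unadjusted p = 0.0206), so the lower level did not pass the threshold. Only 0.0136% of all genes did in this comparison, and 714 genes, or 4.84%, were lower at an unadjusted p below 0.05. The fitted value depended on single PBS control mice, being -0.35 without mouse 1 and -0.17 without mouse 2, with adjusted p-values of 0.34 and 0.804 at the extremes over all 12 mice left out in turn.

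The tau control mice were also set against the PBS acetate mice. All 3 lay below, with a highest value of 15.59 CPM against a lowest of 16.47 CPM, as did 8.55% of all genes in this comparison. The log2 fold change was -0.25 ± 0.10 (SE), with a 95% interval of -0.46 to -0.045 and an adjusted p of 0.363 by edgeR. No gene passed here by edgeR (0%), while 768, or 5.21%, were lower at an unadjusted p below 0.05 and DESeq2 called 183 genes. This comparison and the previous 1 share the tau control mice, so their like values are not separate evidence.

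For the group that defined the pattern, the fitted log2 differences were 0.78 ± 0.097 (SE) against the tau control group (1.72-fold), 0.53 ± 0.093 against the PBS acetate group (1.44-fold) and 0.53 ± 0.095 against the PBS control group (1.44-fold). Leaving out each mouse in turn kept them within 0.76 to 0.83, 0.49 to 0.57 and 0.44 to 0.62. The choice of Myoc fixes the sign of these values in each such fit. With AD tau, acetate-fed mice thus stood 0.78 above control-fed mice on the log2 scale, whereas with PBS the fitted diet difference was -0.0011. The difference between these diet responses, 0.78, rests on the mice by which Myoc was picked and was not tested.

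**Figure D2:**
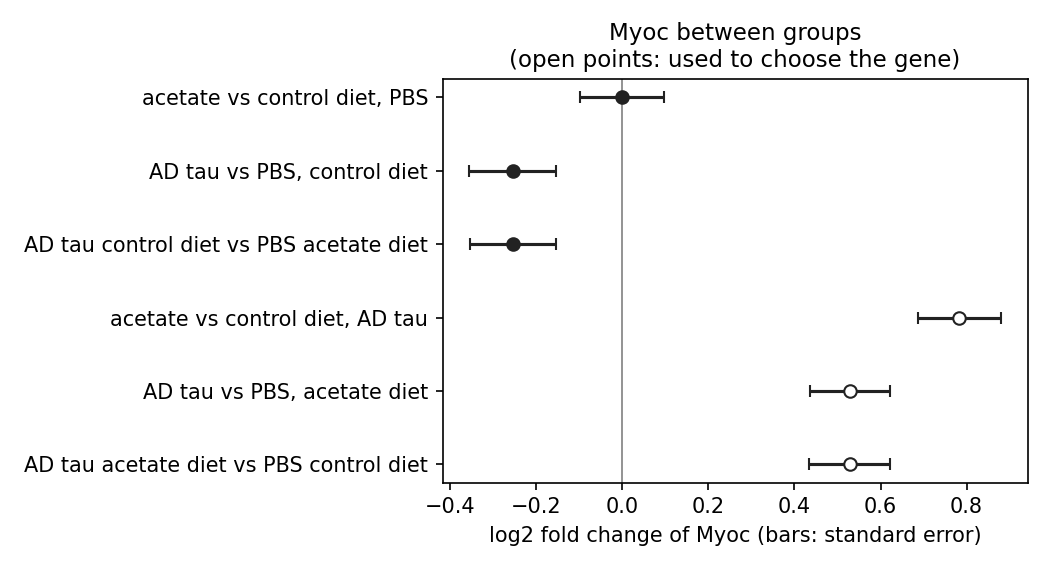
Fitted log2 fold change of Myoc (x axis) for the 6 comparisons of group pairs (y axis), with standard errors as bars. Filled points are the tested comparisons, at -0.0011, -0.26 and -0.25, and open points are those the choice of Myoc used, at 0.78, 0.53 and 0.53.

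Genes next to Myoc on the chromosome were examined for a shared pattern. Of the 3 nearest tested genes on either side, Dnm3, Mettl13, Vamp4, Prrc2c, Fmo1 and Fmo2, the closest is Prrc2c, 21 kb after Myoc, with a log2 fold change of -0.017 for acetate in tau-injected mice (adjusted p = 0.965 by edgeR). Vamp4, which encodes a SNARE protein of the trans-Golgi network and lies 40.1 kb before Myoc, was lower with acetate in PBS-injected mice, by a log2 fold change of -0.20 (adjusted p = 0.0767). Of all genes, 4.85% were called lower there. Vamp4 was the only call among the 6 genes over all 6 comparisons and was kept in 4 of the 12 fits that leave out a mouse. Over the 12 mice their correlation with Myoc ran from -0.50 (Vamp4) to 0.24 (Fmo2).

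The genes whose log2 CPM was most like that of Myoc over all 12 mice were sought among the 11498 tested genes with a mean of at least 5 CPM. Ccdc13, a coiled-coil protein of centriolar satellites, came first with a Pearson r of 0.89, followed by Ppp1r16b, a regulatory subunit of protein phosphatase 1, with 0.88, and Rtkn, the gene of rhotekin, with 0.85. The next were Slc25a38, a mitochondrial glycine carrier (0.85), Lgmn, the lysosomal protease legumain (0.84), Ptges2 (0.84), Cdk19 (0.83), Vps35l (0.83), D430042O09Rik (0.82) and Twnk, the mitochondrial DNA helicase (0.82). Such an r mostly follows the group means, and the same mice chose Myoc, so it carries no test.

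The changes of these 10 genes were much smaller than that of Myoc. Ppp1r16b stood at 281.2, 271.9 and 272.5 CPM in the tau acetate group and between 229.8 and 255 CPM in the other 9 mice. Rtkn stood at 59.02, 56.81 and 56.07 CPM in the tau acetate group, against 45.15, 48.68 and 46.24 CPM in the tau control group and 50.07 to 55.09 CPM in the PBS groups. Like Myoc, Rtkn thus had its lowest mean in the tau control group and its highest in the tau acetate group. In 7 of the 10, all tau acetate mice lay above the other 9, as in 0.739% of all genes. Picking genes by their likeness to Myoc favours this pattern. Log2 fold changes for acetate in tau-injected mice ran from 0.16 (Ptges2) to 0.41 (Ccdc13), none of them passed the adjusted threshold (lowest adjusted p = 0.134, Rtkn), and 0.0611% of all genes did.

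**Figure D3:**
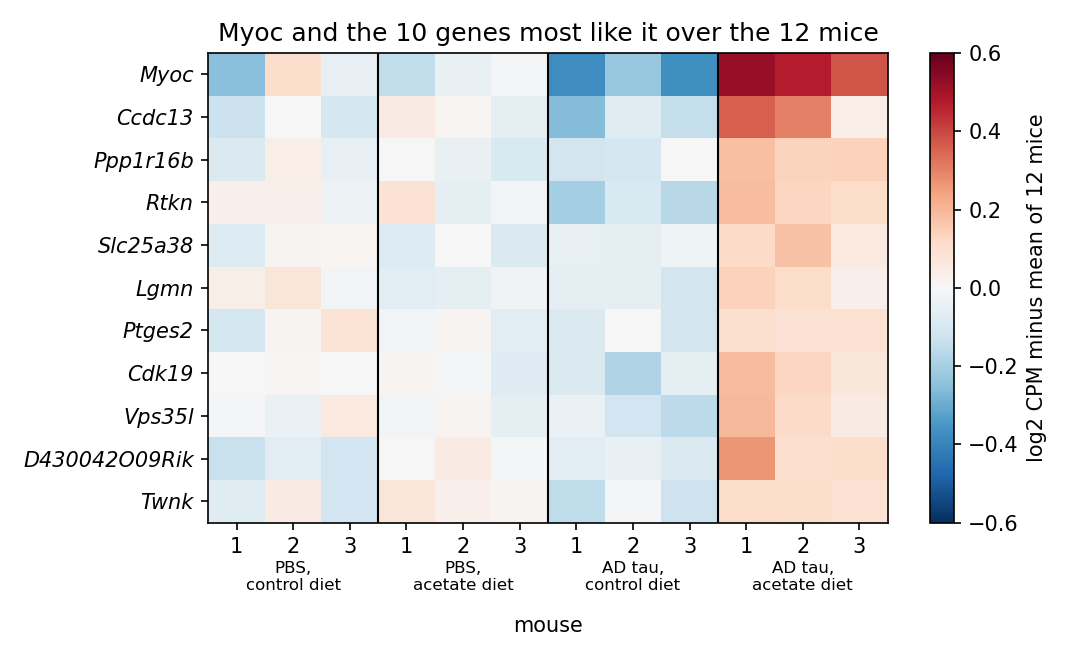
Log2 CPM minus the mean of 12 mice (colour) for Myoc and the 10 genes most like it (rows), in each mouse (columns, 3 per group). In Myoc, by its choice, and in 7 of the 10 other rows, all 3 tau acetate columns lie above the other 9, and in the rest 1 tau acetate mouse does not.

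Within groups, the covariation was described by deviations of log2 CPM from the group mean. The choice of Myoc did not use which mouse of a group was high or low, but it limited how far mice could deviate. With 12 mice and 4 means removed, 8 degrees of freedom were left, and the central 95% of all 11498 genes had r between -0.62 and 0.63 with Myoc. Only 26 genes (0.226%) reached 0.8 and 28 (0.244%) reached -0.8. The named genes are the ends of this distribution, given as a description.

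Unc5a, a netrin receptor, had the highest r (0.90, Spearman's rho 0.91), and then came Chchd7 (0.89), a mitochondrial intermembrane space protein, and Lrtm2 (0.88), a leucine-rich repeat membrane protein. March9, a membrane-bound ubiquitin ligase, had 0.88, Slc12a5, the neuronal potassium-chloride cotransporter KCC2, 0.88, and Slitrk3, a postsynaptic adhesion protein of inhibitory synapses, 0.87. Isy1 (0.86), Ssh1 (0.85) and Insyn1 (0.85) were also among the 10. Much of this came from the PBS control mice, since without that group r was 0.61 for Slitrk3 and 0.63 for Slc12a5, although it was 0.89 for Unc5a and 0.82 for Insyn1. None of the genes named here had all tau acetate mice above the others, and their log2 fold changes for acetate in tau-injected mice lay between -0.14 (Chchd7) and 0.035 (March9).

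The lowest r belonged to Pard6b (-0.91), a cell polarity protein, Atat1 (-0.91), the tubulin acetyltransferase, Prkcq (-0.89), protein kinase C theta, Olfml3 (-0.88), a secreted protein with an olfactomedin domain like that of Myoc, and Urb2 (-0.88). Prkcq is the only gene of these 5 called in a comparison. It stood at 16.82, 11.35 and 14.29 CPM in the PBS control group and at 10.08, 8.509 and 7.602 CPM in the PBS acetate group, lower without overlap (as 13.2% of all genes were), with a log2 fold change of -0.71 (adjusted p = 0.0195 by edgeR, 0.141 without PBS acetate mouse 2). In the tau acetate group it stood at 12.24, 15.06 and 15.74 CPM, 0.71 above the PBS acetate group on the log2 scale (adjusted p = 0.0893), where 0.136% of genes were called. The second of these calls was kept in 4 of the 12 fits that leave out a mouse. Prkcq therefore moved with Myoc between the acetate-fed groups and against it among mice of the same group. Over all 12 mice, its r with Myoc was 0.42.

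Astrocyte markers were considered first, since Myoc marks a subset of astrocytes. Among mice of the same group, Myoc had r = 0.28 (rho = 0.15) with the mean deviation of 15 general astrocyte markers (exact two-sided permutation over all orders of mice within groups, p = 0.485, 0.677 adjusted over 13 cell type lists). Of the 15, 10 had an r above 0, from F3, tissue factor (-0.37), to Fgfr3, a growth factor receptor of mature astrocytes (0.54). The value rests on the PBS control group, because without its mice 1 and 2, the farthest from the median of Myoc, r was -0.24. Summed over the 15 genes, the markers stood at 5612 to 5882 CPM in the tau acetate group, inside the 5458 to 6093 CPM of the other mice, and none of the 15 was at 0 in any group.

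Between groups, general astrocyte markers were called in 1 of the 4 main comparisons. With acetate in PBS-injected mice, where Myoc had -0.0011, 3 of 15 rose (3.99% of all genes did), namely the glutamate transporter Slc1a3 by 0.23 on the log2 scale (adjusted p = 0.0355), Aldoc by 0.20 (0.0676) and F3 by 0.27 (0.073). These were 1 of 15 without PBS control mouse 1 and 0 of 15 without PBS control mouse 3, PBS acetate mouse 1 or PBS acetate mouse 2. With acetate in tau-injected mice, none of 15 was called by edgeR or DESeq2 (2 had an unadjusted p below 0.05), and the median was 0.05 beside 0.00079 for all genes. Of all genes, edgeR called 0.0611% there. The largest value there was that of Hepacam, an astrocyte adhesion protein, with a log2 fold change of 0.21 (adjusted p = 0.237).

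The 6 genes of fibrous and glia limitans astrocytes had a higher summed level in tau acetate than in tau control mice. Gfap, the intermediate filament of these cells, stood at 723.9, 613.1 and 556.3 CPM in the tau acetate group and at 556, 548.1 and 488.4 CPM in the tau control group. Vim, the filament protein vimentin, stood at 66.06, 47.13 and 52.41 CPM in the tau acetate group, against 41.9, 35.75 and 40.36 CPM in the tau control group and 39.53, 33.93 and 33.73 CPM in the PBS acetate group. Tau acetate mouse 1 was the highest of the 12 in Gfap, Vim and Myoc alike. In the PBS control group, Vim stood at 50.94, 47.72 and 45.71 CPM, on both sides of tau acetate mouse 2. In sum the 6 genes reached 814.5 to 990.7 CPM in the tau acetate group, 696.5 to 787.2 in the tau control group, 676.6 to 747.3 in the PBS acetate group and 744.1 to 844.2 in the PBS control group, with none at 0.

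With acetate in tau-injected mice, the log2 fold changes of all 6 were above 0, with a median of 0.30 and a highest value of 0.49 (Vim, adjusted p = 0.168). None was called by edgeR, 4 had an unadjusted p below 0.05, and 1 was called by DESeq2, without the filter on low counts, and with the replicate numbers of the mice fitted as a block (the replicate block). Of all genes, edgeR called 0.0611% there and DESeq2 called 175, and the share at an unadjusted p below 0.05 was not counted. Between the acetate-fed groups, Vim was the 1 call of 6, higher with AD tau by 0.63 (adjusted p = 0.0593, 0.0882% of all genes). That call was lost without any 1 of the 3 PBS acetate mice or without tau control mouse 3 (adjusted p up to 0.442), and 2 of 6 were called without tau acetate mouse 2 or 3. With acetate in PBS-injected mice, 3 of 6 fell (4.85% of all genes did), namely Vim by 0.43, the hyaluronan receptor Cd44 by 1.12 and the water channel Aqp4 by 0.20, and 0 of 6 without PBS control mouse 3 or PBS acetate mouse 2. Within groups, Myoc had r = 0.32 (rho = 0.30) with these 6 genes (exact permutation p = 0.41, adjusted p = 0.677), from -0.26 for Vim to 0.58 for Id3, and -0.073 without the 2 farthest mice. The part of these markers in the level of Myoc was not tested.

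**Figure D4:**
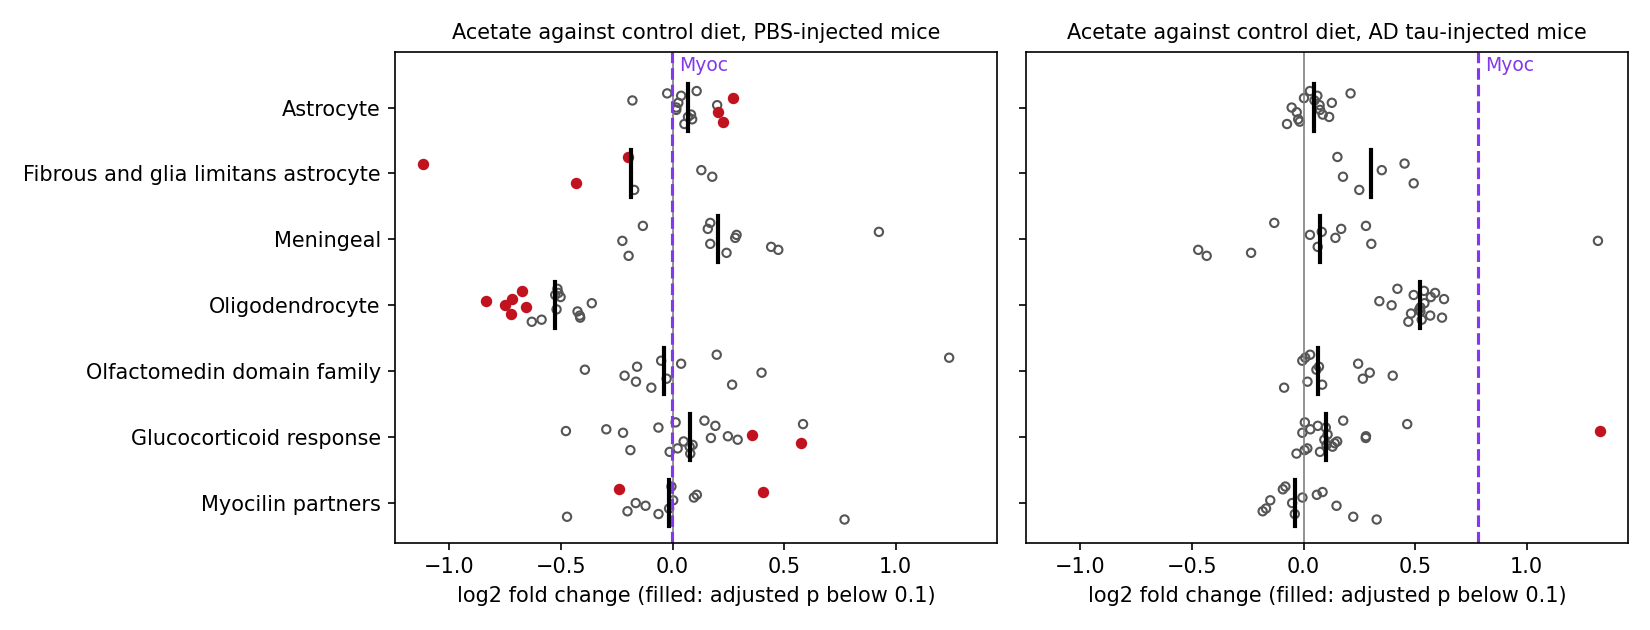
Log2 fold change for acetate against control diet (x axis) of each gene of 7 lists (y axis), in PBS-injected mice (left) and AD tau-injected mice (right), with red points called at an adjusted p below 0.1, bars for list medians and a dashed line for Myoc. In PBS-injected mice Myoc lies at 0 between an oligodendrocyte median of -0.53 and a meningeal median of 0.21, and in tau-injected mice the highest median of the 7 lists drawn is 0.52, for oligodendrocytes, beside 0.78 for Myoc.

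Meningeal genes were sparse in this tissue. The 12 markers, among them the collagens Col1a1 and Col1a2, the proteoglycans Dcn, Lum and Ogn and the GABA and taurine transporter Slc6a13, summed to 45.64 to 65.19 CPM in the tau acetate group, 52.88 to 57.26 in the tau control group, 44.11 to 50.75 in the PBS acetate group and 41.51 to 45.95 in the PBS control group. None was at 0 in any group, and none was called by edgeR or DESeq2 in any of the 6 comparisons, with 0 to 4 at an unadjusted p below 0.05. The 4 were for AD tau on the control diet, where 4.81% of all genes were higher and 4.84% lower at that level. Between tau acetate and PBS control mice, 1.83% of all genes were called. The largest value for acetate in tau-injected mice was that of Col3a1, with a log2 fold change of 1.32 at a mean of 1.33 CPM (adjusted p = 0.26).

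Within groups, Myoc had r = -0.36 (rho = -0.34) with the meningeal list (exact permutation p = 0.318, adjusted p = 0.677), and -0.23 without the 2 farthest mice. Of the 12 genes, 3 had an r above 0, from Foxc1, a transcription factor of meningeal development (-0.60), to Islr (0.49). Islr, at 15.76, 15.55 and 16.25 CPM in the tau acetate group, is the most abundant of the 12 and stood between 9.236 and 17.14 CPM in the other mice. With the meningeal list score as a covariate, the fitted difference of Myoc for acetate in tau-injected mice was 0.80, and with the score of the general astrocyte list 0.75, against 0.78 without them. These values rest on the mice by which Myoc was picked, and no fit used the score of the fibrous astrocyte list. The part of cell types in this difference was not tested.

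Oligodendrocyte genes followed the same order of groups as Myoc in part. Mobp, a basic protein of myelin, stood at 1484, 1277 and 885.5 CPM in the tau acetate group and at 808.6, 811.6 and 992.7 CPM in the tau control group, so that these groups overlapped. In the PBS control group it stood at 1668, 1319 and 1248 CPM, against 1019, 824.4 and 717.2 CPM in the PBS acetate group. The PBS control mice of Mobp overlapped the tau acetate mice as well. The 17 markers summed to 6259 to 10080 CPM in the tau acetate group, 5487 to 6670 in the tau control group, 5187 to 7130 in the PBS acetate group and 8214 to 10640 in the PBS control group, with none at 0.

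With acetate in tau-injected mice, all 17 log2 fold changes were above 0, with a median of 0.52, and with AD tau on the control diet all 17 were below 0, with a median of -0.60. None was called by edgeR in either comparison (0.0611% and 0.0136% of all genes were), and DESeq2 called 3 and 4, of 175 and 86 genes in all. At an unadjusted p below 0.05 there were 13 and 17. For AD tau on the control diet 4.84% of all genes were lower at that level, and for acetate in tau-injected mice this share was not counted. Those comparisons share the tau control mice. With acetate in PBS-injected mice, 6 of 17 fell (4.85% of all genes did), namely Mobp, the tight junction gene Cldn11, Ermn, the galactolipid enzymes Ugt8a and Fa2h, and the connexin gene Gjb1, with log2 fold changes from -0.84 (Ugt8a) to -0.66 (Cldn11), and the median of all 17 was -0.53, beside -0.0011 for Myoc. With the replicate block, Ugt8a was not called (adjusted p = 0.127). The count of 6 ran from 0, without PBS control mouse 1 or PBS acetate mouse 2, to 12, without tau acetate mouse 3, a mouse whose removal also gave 5 calls for acetate in tau-injected mice.

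Within groups the oligodendrocyte list had r = -0.22 (rho = -0.11) with Myoc (exact permutation p = 0.516, adjusted p = 0.677), and 0.061 without the 2 farthest mice. Of the 17 genes, 1 had an r above 0, Fa2h at 0.055, and the lowest was Mog, a surface glycoprotein of myelin, at -0.39. In PBS control mouse 1, the highest of its group in Mobp, Myoc was the lowest of its group. With the oligodendrocyte score as a covariate, the fitted difference of Myoc for acetate in tau-injected mice was 0.82, and for AD tau on the control diet it was -0.30 (adjusted p = 0.896 by edgeR). The first of these values rests on the mice by which Myoc was picked, and the part of oligodendrocytes in it was not tested.

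**Figure D5:**
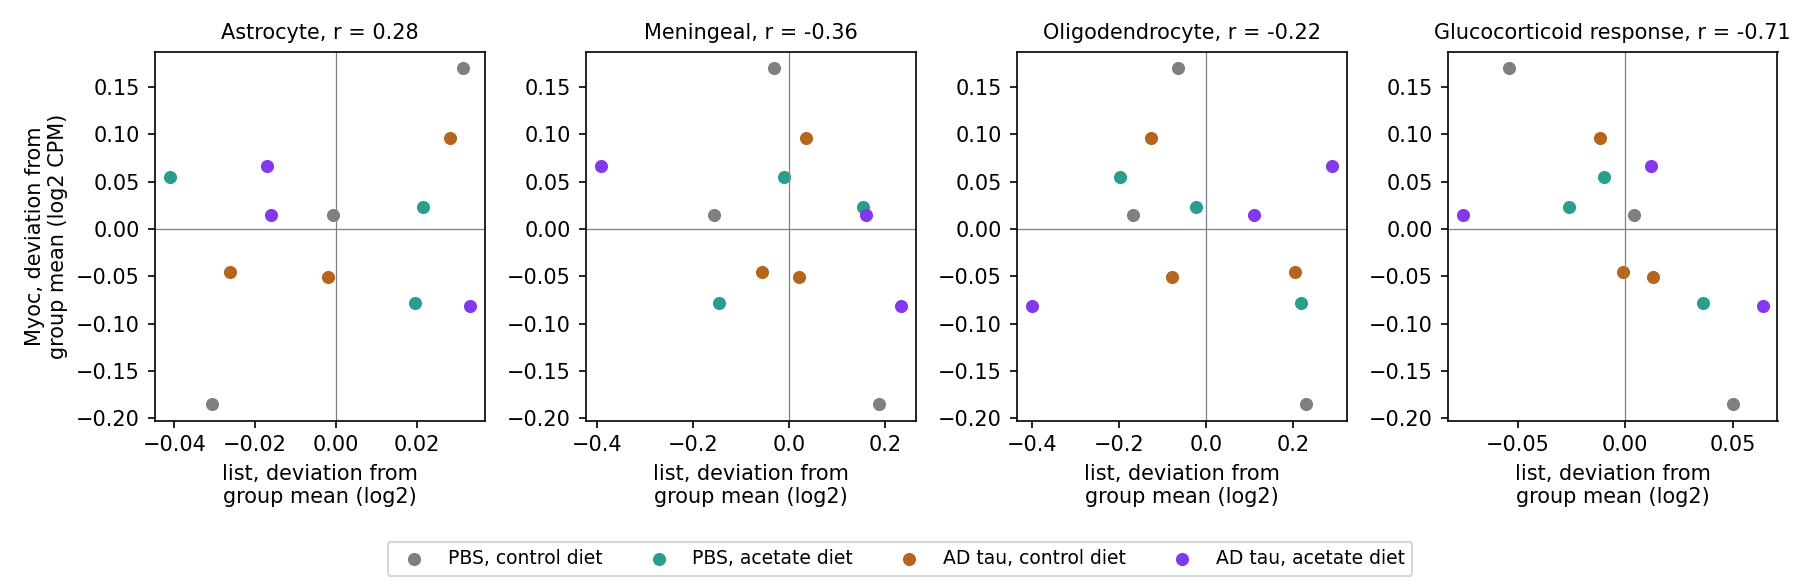
Deviation of Myoc from its group mean (y axis, log2 CPM) against the mean deviation of 4 gene lists (x axes, log2), 1 point per mouse, coloured by group. The astrocyte, meningeal and oligodendrocyte panels show r of 0.28, -0.36 and -0.22, the glucocorticoid panel shows -0.71, and the highest and lowest points in each are PBS control mice 2 and 1.

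The other cell type lists gave r between -0.43 and 0.59 with Myoc within groups, and for all 13 the adjusted p lay between 0.677 and 0.714. The dentate granule list had the highest, 0.59 (rho = 0.23, exact permutation p = 0.482), with C1ql2 at 0.62, and turned to -0.32 without the 2 farthest mice. Without PBS control mouse 1 alone it was -0.33, and that mouse had the lowest C1ql2 of all, 100.3 CPM against 126.7 to 185.1 CPM in the others. The CA1 list had r = -0.43 and the choroid plexus list -0.33 (-0.59 without the 2 farthest mice). The mural list had -0.33, the endothelial list -0.18, the OPC list -0.11, the CA3 list 0.08, the microglia list 0.13 and the ependymal list 0.19.

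Some of these lists had larger medians for acetate in PBS-injected mice, the comparison in which Myoc had -0.0011. They were 0.68 for the 5 CA1 genes, -0.79 for the 6 CA3 genes, -1.15 for the 7 ependymal genes and -0.98 for the 9 choroid plexus genes, against 0.0042 for all genes. Of these, 4 of 5 CA1 genes rose, among them Mpped1 by 0.78, where 3.99% of all genes rose. In contrast, 3 of 6 CA3 genes, among them Spock1, 6 of 7 ependymal genes and 2 of 9 choroid plexus genes fell (4.85% of all genes did). Without PBS acetate mouse 2 none of these 15 genes was called. With the replicate block, 2 of 6 CA3 genes and 5 of 7 ependymal genes were called. The counts were also lower without PBS control mouse 3, at 0 (CA1), 0 (CA3), 3 (ependymal) and 0 (choroid plexus), and the first 2 and the last were 0 without PBS acetate mouse 1. Without PBS control mouse 1 they were 2 (CA1), 1 (CA3) and 0 (choroid plexus), and without PBS control mouse 2 they were 1 (CA1) and 0 (choroid plexus). Choroid plexus genes summed to 494.6 CPM in 1 tau acetate mouse and to at most 86.28 CPM in the other 2, whereas Myoc differed by less than 3 CPM among those mice. In tau-injected mice, acetate gave the ependymal list a median of 0.78 with 0 of 7 called by edgeR, 5 at an unadjusted p below 0.05 and 1 called by DESeq2. It gave the microglia list 0.13, with 0 of 9 called by either and 1 at an unadjusted p below 0.05. Of all genes, edgeR called 0.0611% there, and DESeq2 called 175 genes.

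Relatives of myocilin with an olfactomedin domain were examined next. Olfm1, the brain's noelin, was by far the most abundant of the 12 measured, at 373 CPM per kilobase against 8.99 for Myoc, and had a log2 fold change of -0.087 for acetate in tau-injected mice (adjusted p = 0.679). None of the 12 was called by edgeR in any of the 6 comparisons, although for acetate in PBS-injected mice 4 had an unadjusted p below 0.05, DESeq2 called 2 and the fit with the replicate block called 1. Of all genes, edgeR called 8.84% for acetate in PBS-injected mice and 1.83% or fewer in each other comparison. For acetate in PBS-injected mice, 9.96% of all genes were higher and 10.8% lower at an unadjusted p below 0.05. DESeq2 called 1371 genes there, and the fit with the replicate block 1224. The median for acetate in tau-injected mice was 0.064. Olfml1 came nearest to Myoc, at 21.06, 20.15 and 16.12 CPM in the tau acetate group and 13.85, 15.12 and 14.57 CPM in the tau control group, without overlap (as 6.66% of all genes were higher), with a log2 fold change of 0.40 (adjusted p = 0.286). The largest difference of the family was that of Adgrl2, the adhesion receptor latrophilin 2, for acetate in PBS-injected mice, 1.24 on the log2 scale (adjusted p = 0.142).

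Within groups, the family had r = 0.42 with Myoc (rho = 0.31, exact permutation p = 0.294, 0.641 adjusted over 16 lists), and -0.014 without the 2 farthest mice. Members ran from Olfml3 at -0.88 to Gldn, the nodal protein gliomedin, at 0.50. Olfml3 stood at 25.21, 19.46 and 22.01 CPM in the PBS control group, in the reverse order of Myoc, and its group means differed little, from 19.97 to 22.23 CPM.

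Glucocorticoid-responsive genes were examined because glucocorticoids induce Myoc in the eye. The list of 20 held receptors (Nr3c1, Nr3c2), the activating enzyme Hsd11b1 and targets such as Fkbp5, Sgk1 and Tsc22d3. Within groups, Myoc tended to be low in mice where the list was high, with r = -0.71 (exact permutation p = 0.0332) and rho = -0.77 (p = 0.0224), but the adjusted p over 16 lists was 0.531 and 0.358. With the replicate numbers removed as a block, r was -0.46. Without the 2 farthest mice r was -0.54, and 5 of the 20 genes had an r above 0. Per1, a clock gene that glucocorticoids induce, had the lowest, -0.65, followed by the kinase Sgk1 at -0.62 and Plin4, a lipid droplet protein, at -0.60, and Hsd11b1 had the highest, 0.44.

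Between groups, the receptors and Fkbp5 had log2 fold changes for acetate in tau-injected mice of -0.031 (Nr3c1), 0.074 (Nr3c2) and 0.017 (Fkbp5), and none of these was called. Plin4 was the 1 call of 20 there (0.0407% of all genes were called higher) and had a larger change than Myoc, 1.33 on the log2 scale (adjusted p = 0.0467 by edgeR). The call was lost without tau control mouse 2 or 3 or tau acetate mouse 1 (adjusted p up to 0.233). Plin4 stood at 5.005, 4.658 and 5.652 CPM in the tau acetate group, at 2.019, 1.658 and 2.442 CPM in the tau control group, at 2.777, 2.424 and 2.683 CPM in the PBS acetate group and at 3.668, 2.703 and 4.537 CPM in the PBS control group. As with Myoc, the tau acetate mice of Plin4 lay above the other 9, and the tau control mice had the lowest mean. For Plin4 the margin was narrow, at 4.658 CPM in tau acetate mouse 2 against 4.537 CPM in PBS control mouse 3. Within groups, the r of Plin4 with Myoc was -0.60. This value lay inside the central range of the genes compared with Myoc, -0.615 to 0.63, so it does not set Plin4 apart.

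In PBS-injected mice, acetate raised 2 of the 20 (3.99% of all genes rose), Per1 by 0.58 (adjusted p = 0.00448) and Ddit4, an inhibitor of mTORC1, by 0.35 (adjusted p = 0.0191). The call of Per1 was kept in all 12 fits that leave out a mouse, with adjusted p-values up to 0.052, and that of Ddit4 in 11. Between tau acetate and PBS control mice, 3 of the 20 were called higher by edgeR (0.617% of all genes were). They were Per1 by 0.44 (adjusted p = 0.0284), Zbtb16 by 0.32 (0.0412) and Mt1 by 0.26 (0.0899). Of all genes, 0 were called in that comparison without tau acetate mouse 3, and 1 without PBS control mouse 3.

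Reported partners of myocilin were examined last. Among these 13 genes are the receptors Erbb2 and Erbb3, the Nogo receptor Rtn4r with Lingo1, the nodal adhesion proteins Nrcam and Nfasc, the matrix proteins Sparc, Sparcl1, Timp3 and Fn1, the chaperone Hsp90b1 and Flot1. With acetate in tau-injected mice, none of 13 was called by edgeR or DESeq2 (2 had an unadjusted p below 0.05) and the median was -0.039, with Rtn4r at -0.039 and Lingo1 at -0.18. Of all genes, edgeR called 0.0611% there. With acetate in PBS-injected mice, 2 of 13 were called, where 8.84% of all genes were. Fn1, fibronectin, rose by 0.40 (adjusted p = 0.0557 by edgeR). Hsp90b1, a chaperone of the endoplasmic reticulum that recognises misfolded myocilin, fell by 0.24 (adjusted p = 0.0251). These 2 calls were kept in 8 and 11 of the 12 fits that leave out a mouse. Within groups, Myoc had r = 0.31 (rho = 0.39) with the 13 (exact permutation p = 0.239, 0.641 adjusted over 16 lists), from Timp3 at -0.26 to Rtn4r at 0.54.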

How the data were processed

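The authors aligned reads with STAR 2.5.2a to GRCm38, counted reads on exons on the reverse strand with HTSeq 0.9.1 and deposited raw counts per gene, without normalization. The labels name a directional library kit and the study's methods a kit that is not named directional. Poly(A) RNA favours polyadenylated transcripts, and the counts of 5357 genes were 0 in every mouse.

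From these counts, filterByExpr (minimum count 10, minimum total 15) kept 14742 genes, which were fitted with edgeR 4.0.16 in R 4.3.3 (TMM, robust quasi-likelihood F test, 1 mean per group over all 12 mice, 8 residual degrees of freedom). Calls were made at a Benjamini-Hochberg adjusted p below 0.1 over all genes. The common biological coefficient of variation was 7.25%. Labels do not say more on replicates than that each is a mouse. Intervals from counts are exact Poisson and cover counting error only. Correlations used log2 CPM with a prior count of 2, and list scores the mean deviation of list genes, with exact two-sided permutations of mice within groups, whose smallest p is 0.000772. Gene lengths and positions come from GENCODE release 21, which held 24534 of the 24985 symbols. Upstream sequence comes from RefSeq on GRCm38.p6.

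Myoc was chosen, and the gene lists were written, with earlier results of these data known. Named are Myoc, 3 tested neighbours on either side, the 10 highest and 5 lowest within-group r, the 10 highest r over 12 mice, and, for the astrocyte, meningeal, oligodendrocyte, olfactomedin, glucocorticoid and partner lists, the extremes of r, called members and the largest change where none was called. This rule was also set for the other cell type lists, whose members are mostly given by counts, medians and list r alone, and some genes are not reported here. Deviations of same-numbered mice correlated above 0.1 in all 3 pairs of PBS control with PBS acetate mice (0.158, 0.21 and 0.335) and in no other 2 groups, so the fit with a block for replicate numbers is given beside results of that comparison whose call it changes. Myoc was not tested where the tau acetate mice entered. Lists were described by counts and medians with no set test. The functions were tested on simulated data: for acetate in PBS-injected mice, 83% of 2-fold and 61.6% of 1.5-fold changes were recovered among 14635 genes (22 of 166 calls false), and for AD tau on the control diet 86.9% and 63% among 14638 (10 of 159 false).

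Alternatives were DESeq2 1.42.0's size factors, no filter, DESeq2's Wald test, only the compared groups, a stricter adjusted p of 0.05, a block for replicate numbers, a prior count of 0.5, list scores as covariates, and each mouse left out in turn.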

Additional observations from a re-analysis of the deposited data

Results flagged for a closer look

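The response to acetate was not the same after AD tau as after PBS, by a test of the interaction of diet and injection (edgeR, adjusted p below 0.1), in 7 of the 95 genes in the astrocyte, meningeal, oligodendrocyte, olfactomedin, glucocorticoid and partner lists, where 1.56% of all genes passed. Differences are on the log2 scale, the response with AD tau minus that with PBS. Of the astrocyte genes, Vim differed by 0.93 (adjusted p = 0.0357), its response being -0.43 with PBS and 0.49 with AD tau. Cd44 differed by 1.57 (adjusted p = 0.0755) and Aqp4 by 0.35 (adjusted p = 0.0755). Of the oligodendrocyte genes, Gjb1 differed by 1.35 and Fa2h by 1.21 (adjusted p = 0.0466 for both). Each of these 5 fell with acetate after PBS and had a positive value after AD tau. Of the glucocorticoid genes, Plin4 differed by 1.80 (adjusted p = 0.0261), from -0.48 with PBS to 1.33 with AD tau, and Per1 by -0.44 (adjusted p = 0.0917), from 0.58 to 0.14. Without PBS acetate mouse 2 none of the 7 passed (adjusted p between 0.115 and 0.246), and 8 genes did in all instead of 230. With each other mouse left out, Vim and Plin4 passed every time, and the rest did not in every fit. Myoc had 0.78 on the same scale, which was not tested because its choice used these mice.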

How the results depend on the processing

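Myoc kept its direction and its side of the threshold in the 3 tested comparisons under all alternatives, save the sign of its value near 0 for acetate in PBS-injected mice, which was 0.00897 without the filter and 0.037 with the meningeal score as a covariate. Leaving out each mouse gave -0.089 to 0.085 for that value, -0.35 to -0.17 for AD tau on the control diet and -0.31 to -0.23 for tau control against PBS acetate mice. DESeq2 gave no adjusted p for the last. With counts of 185 to 530 reads, the counting error of Myoc was about 5 to 7% at the mean count of each group.

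Outside the PBS control and PBS acetate groups, whose 3 same-numbered pairs each correlated above 0.1, replicate numbers did not pair the mice. Over all groups 4 of 18 pairs correlated above 0.1 (range -0.20 to 0.34) and 4 of 12 mice correlated best with their own number. With the replicate block, Myoc had -0.0026, -0.26 and -0.25 in the tested comparisons and 0.79 for acetate in tau-injected mice. Under the block, calls were 1 and 2 of the fibrous astrocyte list (acetate in tau-injected mice and AD tau on the acetate diet), 1 of the oligodendrocyte list (AD tau on the control diet), 1 of the olfactomedin list (acetate in PBS-injected mice) and 1 of the glucocorticoid list (AD tau on the acetate diet), and Ugt8a was lost (adjusted p = 0.127). For acetate in PBS-injected mice, the block also gave 2 CA3 calls instead of 3 and 5 ependymal calls instead of 6. Members of these lists aside, the block changed no other call of a gene named for that comparison.

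Other list counts depended on the settings. For acetate in PBS-injected mice, oligodendrocyte calls were 2 without the filter, 11 with DESeq2, 11 in a fit of the compared groups alone and 2 at an adjusted p below 0.05. At that stricter threshold the astrocyte and partner lists had 1 call each, and the fibrous list 0 for AD tau on the acetate diet. DESeq2 and the fit of compared groups each called 2 olfactomedin genes, and the latter 6 glucocorticoid genes. For AD tau on the control diet, oligodendrocyte calls were 4 with either. For acetate in tau-injected mice, DESeq2 called 3 oligodendrocyte genes and 1 fibrous gene, no filter gave 1 fibrous and 2 glucocorticoid genes, and compared groups alone gave 0 glucocorticoid genes. For AD tau on the acetate diet, DESeq2 called 3 fibrous, 1 oligodendrocyte and 2 glucocorticoid genes, no filter 2 glucocorticoid genes, and compared groups alone 0 fibrous genes. The cause was not tested.

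With each mouse left out, list counts for acetate in PBS-injected mice ran from 0 to 3 (astrocyte), 0 to 3 (fibrous), 0 to 12 (oligodendrocyte), 0 to 2 (olfactomedin), 1 to 4 (glucocorticoid) and 0 to 4 (partners). For acetate in tau-injected mice they ran from 0 to 1 (fibrous), 0 to 5 (oligodendrocyte) and 0 to 2 (glucocorticoid), for AD tau on the acetate diet from 0 to 2 (fibrous, oligodendrocyte and glucocorticoid), and for AD tau on the control diet from 0 to 2 (oligodendrocyte).

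Within groups, r with each mouse left out ran from -0.051 to 0.51 (astrocyte), -0.012 to 0.46 (fibrous), -0.66 to 0.11 (oligodendrocyte), -0.26 to 0.060 (OPC), -0.089 to 0.31 (microglia), -0.036 to 0.41 (ependymal), -0.096 to 0.36 (CA3) and -0.33 to 0.72 (dentate granule), and the other lists kept their sign. The glucocorticoid r ran from -0.93 to -0.59 and was -0.46 with the block. Over all genes, calls by edgeR and by DESeq2 were 2 and 86 for AD tau on the control diet, 0 and 183 for tau control against PBS acetate mice, 9 and 175 for acetate in tau-injected mice, 20 and 112 for AD tau on the acetate diet and 230 and 434 for the interaction. Compared groups alone gave 35, 27, 2 and 16 in the first 4 of these, no filter 3, 28, 56 and 37, and the block 9, 1, 10 and 25. With the astrocyte score as a covariate, 0 genes were called for acetate in PBS-injected mice instead of 1303, and with the oligodendrocyte score 2. These scores carry the groups' own differences in the markers, so such fits do not separate cell types from diet. The part of cell types was not tested. Fits for the neighbours, Prkcq, the interaction and the calls of the CA1, CA3, ependymal and choroid plexus lists were chosen after seeing the data.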
